A study of Mus musculus with 6 samples.

Results

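Mitosis and DNA replication genes were examined in cells sorted as eosinophils from subcutaneous (subcut) adipose tissue (AT) of mice lacking the transcriptional repressor KLF3. The list held 37 textbook genes, 22 that act in mitosis and 15 that act in DNA replication, and each was read from the brightest probe set (by mean over all arrays) that the platform annotation pairs with a single gene symbol. Of these, 36 were measured among the 17097 genes with such a probe set, 21 of the 22 mitotic genes and all 15 replication genes. The cyclin gene Ccnb1 was not analysed here because no probe set carried its symbol alone.

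The 2 groups were 3 Klf3 KO mice, with both alleles of Klf3 disrupted in every tissue, and 3 WT littermates from the same heterozygous crosses. All 6 were male mice of the FVB/NJ strain, aged 12 weeks, fed standard chow, held at 22 °C and given no treatment. The stromal vascular fraction of the subcut depot holds the cells of AT other than adipocytes. From it, live CD45+ CD11b+ F4/80+ SiglecF+ cells with high side scatter were sorted. The RNA of each mouse was amplified and hybridised to 1 Affymetrix HT MG-430PM array. The disruption was global, so a difference between arrays need not have begun in the sorted cells. Intensities were compared as log2 values after quantile normalisation between arrays, and the values given are on that scale unless called deposited.

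Eosinophils are mature granulocytes that divide little once they have left the bone marrow, whereas macrophages and some other leukocytes can divide within a tissue. Replication genes are switched on when a cell passes from G1 to S phase: the MCM2 to MCM7 proteins are loaded on origins by CDC6 and CDT1, cyclin E and its kinase help to fire them, and thymidylate synthase and ribonucleotide reductase supply nucleotides. Mitotic genes follow in G2 and M phase. Their products condense chromosomes, build the spindle, attach it to kinetochores and, through the anaphase-promoting complex, let the sister chromatids part. Both programs are held down in resting cells by the DREAM complex, which reaches mitotic promoters through the cell cycle genes homology region (CHR), often beside CCAAT boxes bound by NF-Y, and reaches S phase promoters through E2F sites.

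The letters of these elements were looked up in the promoter windows that RefSeq gives for mouse build GRCm38.p6, which run from 250 bases before the gene start to 50 after it. A window was found for 17 of the 21 measured mitotic genes and 13 of the 15 replication genes, and a gene with more than 1 window counted if any of them held the letters. The CHR was searched as TTTGAA or TTCGAA, the NF-Y box as CCAAT and the E2F site as TTTCCCGC or TTTGGCGC, all on both strands. CHR letters lay in the windows of 14 of the 17 mitotic genes (82.4%) and 3 of the 13 replication genes (23.1%), against 17.5% of the 13605 genes on the array with a window and 21.7% of all 27025 RefSeq genes with one. CCAAT lay in 15 mitotic windows (88.2%) and 9 replication windows (69.2%), against 42.3% on the array and 41.1% in RefSeq. E2F letters lay in 0 of the 17 mitotic windows and 6 of the 13 replication windows (46.2%), namely Cdc6, Cdt1, Mcm3, Mcm5, Mcm6 and Mcm7, against 2.71% on the array and 1.8% in RefSeq. The letters CACCC, the core of the element bound by KLF factors, lay in 6 mitotic windows (35.3%) and 10 replication windows (76.9%), against 66.2% on the array and 59.8% in RefSeq. A match in letters is not evidence of binding, and windows without a match may hold variants that were not searched.

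**Figure D1:**
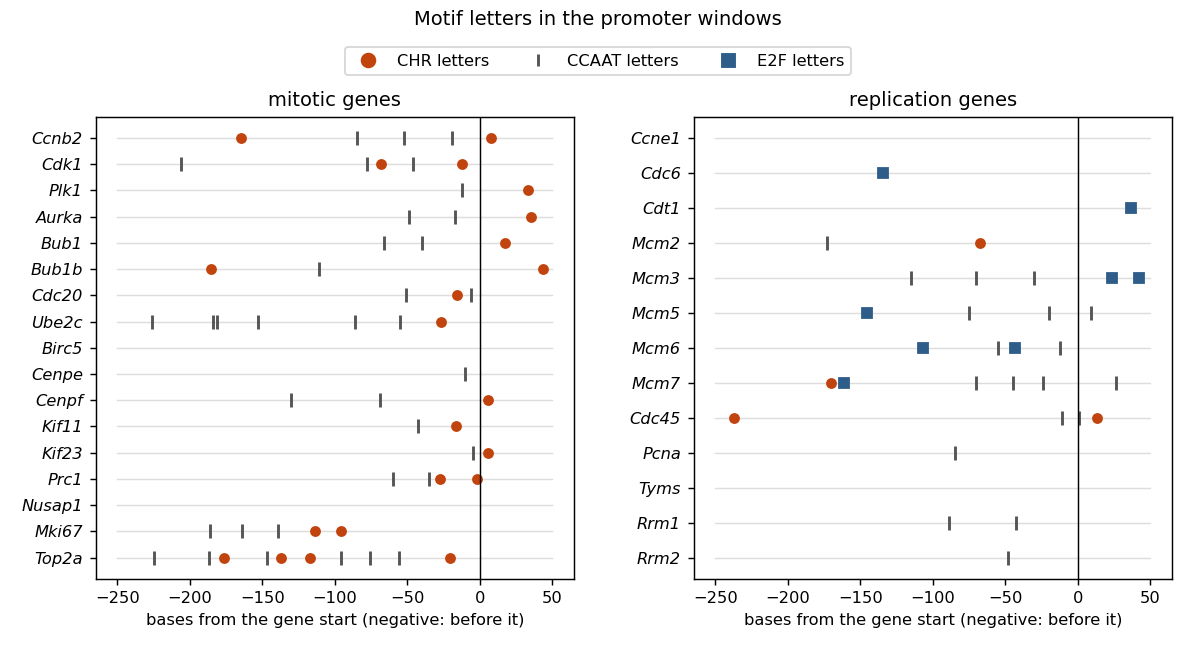
Positions of motif letters in the 300-base promoter windows of 17 mitotic genes (left) and 13 replication genes (right). The horizontal axis gives bases from the gene start, with negative values before it. Circles are CHR letters, ticks CCAAT and squares the E2F letters searched, which appear in 6 replication genes and in no mitotic gene.

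A set of mitotic promoters is shown because its members carry the paired arrangement of CHR and CCAAT letters, here in capitals, in the bases just before the gene start. They belong to Top2a (chr11:99024190-99024339, minus strand), Cdk1 (chr10:69352913-69353012, minus strand), Cdc20 (chr4:118437344-118437443, minus strand) and Kif11 (chr19:37376282-37376381, plus strand), and each is written 5′ to 3′ along its gene.
Top2a: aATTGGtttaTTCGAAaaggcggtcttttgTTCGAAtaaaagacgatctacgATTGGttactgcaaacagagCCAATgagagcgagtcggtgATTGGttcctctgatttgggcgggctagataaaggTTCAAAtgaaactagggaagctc
Cdk1: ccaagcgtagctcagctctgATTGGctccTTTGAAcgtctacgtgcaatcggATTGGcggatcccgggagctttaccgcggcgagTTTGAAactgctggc
Cdc20: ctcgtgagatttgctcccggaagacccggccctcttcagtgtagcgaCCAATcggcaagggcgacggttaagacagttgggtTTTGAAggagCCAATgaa
Kif11: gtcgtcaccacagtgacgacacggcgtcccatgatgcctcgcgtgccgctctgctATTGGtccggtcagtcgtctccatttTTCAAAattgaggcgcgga

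A set of replication promoters is shown because its members hold the E2F letters, here in capitals, in the 160 bases before the start. They belong to Mcm5 (chr8:75109349-75109508, plus strand), Mcm6 (chr1:128359706-128359865, minus strand) and Cdc6 (chr11:98907991-98908150, plus strand).
Mcm5: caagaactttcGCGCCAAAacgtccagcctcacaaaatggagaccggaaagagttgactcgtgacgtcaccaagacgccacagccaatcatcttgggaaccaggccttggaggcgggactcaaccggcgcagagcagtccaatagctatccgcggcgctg
Mcm6: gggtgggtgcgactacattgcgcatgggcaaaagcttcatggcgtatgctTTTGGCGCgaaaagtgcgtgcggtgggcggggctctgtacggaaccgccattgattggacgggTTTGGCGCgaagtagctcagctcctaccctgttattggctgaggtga
Cdc6: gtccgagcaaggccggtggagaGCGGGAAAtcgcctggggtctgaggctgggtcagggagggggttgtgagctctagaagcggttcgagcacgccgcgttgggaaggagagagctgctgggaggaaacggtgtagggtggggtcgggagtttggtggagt

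Some facts of the arrays bear on every value below. Median deposited intensities were 46.7, 58.7 and 35.4 on the arrays of Klf3 KO mice 1 to 3 and 36.8, 56.5 and 30.3 on those of WT mice 1 to 3. Of 6 Klf3 probe sets, 5 were higher on every Klf3 KO array than on every WT array and 1 was lower. Their place relative to the disruption was not known, so they do not check the labels. The eosinophil markers measured were mostly dim. Siglecf, Ccr3, Epx, Prg2 and Il5ra all averaged below 5.10, the 95th percentile of 44 olfactory receptor probe sets used as background, and 3 of 9 measured markers lay above it (Prg3, Ltc4s and Cd24a). All 15 macrophage markers lay above it. Which cells gave the RNA on these arrays was not tested, so the values below are not assigned to eosinophils. Of the 36 mitotic and replication genes 34 averaged above it, all but Bub1 and Cdc6. Replicate numbers are those in the labels, which describe the mice as litter-matched.

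No gene of either program passed the test between the genotypes. Klf3 KO arrays showed 0 of the 36 genes called in either direction (limma, Benjamini-Hochberg adjusted p from 0.910 to 1.0), as 0 of all 45037 probe sets were called (0.0%). At an unadjusted p under 0.05, 0 members were higher and 0 lower in Klf3 KO, where 3.61% of all genes were higher and 2.47% lower. Most of the fold changes were nonetheless negative. The median log2 fold change of the mitotic genes, Klf3 KO minus WT, was -0.63, with 19 of 21 genes below 0, that of the replication genes was -0.24 with 14 of 15 below 0, and the median over all genes was -0.04. Values of single mitotic genes ran between -1.46 for Tpx2 and 0.22 for Cenpf, with standard errors of 0.34 to 0.93. These medians describe lists chosen with results of these arrays known and carry no test. RNA of all sorted cells of a mouse was pooled on its array, so fewer cells of a kind and less RNA per cell cannot be told apart.

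What most of the genes shared was the array on which they were highest. The array of WT mouse 2 was the highest of the 6 for 21 of 21 mitotic genes and 12 of 15 replication genes, where it was the highest for 19.8% of all genes. Mitotic genes on that array exceeded the mean of the other 5 arrays by a median of 1.90 log2 units (3.72-fold), between 0.86 for Aurka and 2.76 for Tpx2. For replication genes the median was 0.70 (1.63-fold), between 0.29 for Cdt1 and 1.94 for Rrm2. The distance to the next highest array had a median of 1.24 in mitotic genes and 0.37 in replication genes. In the exceptions, Ccne1 was highest in WT mouse 3, Cdt1 in WT mouse 1 and Mcm2 in Klf3 KO mouse 1, all with WT mouse 2 within 0.14 of the top. Taken from the values as deposited, or centred on each array's median, WT mouse 2 was highest for all 21 mitotic and all 15 replication genes. The share of all genes highest in WT mouse 2 was not counted on these scales. As deposited, the median intensity of its array was 56.5, above every other array but that of Klf3 KO mouse 2 (58.7). The low end was less uniform. Klf3 KO mouse 3 was lowest for 12 of 21 mitotic and 5 of 15 replication genes, against 16.5% of all genes. The remaining mitotic genes were lowest in WT mouse 1 (5 genes) or Klf3 KO mouse 1 (4 genes). Among replication genes WT mouse 3 was lowest most often, for 6 of 15, against 2430 of all 17097 genes.

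**Figure D2:**
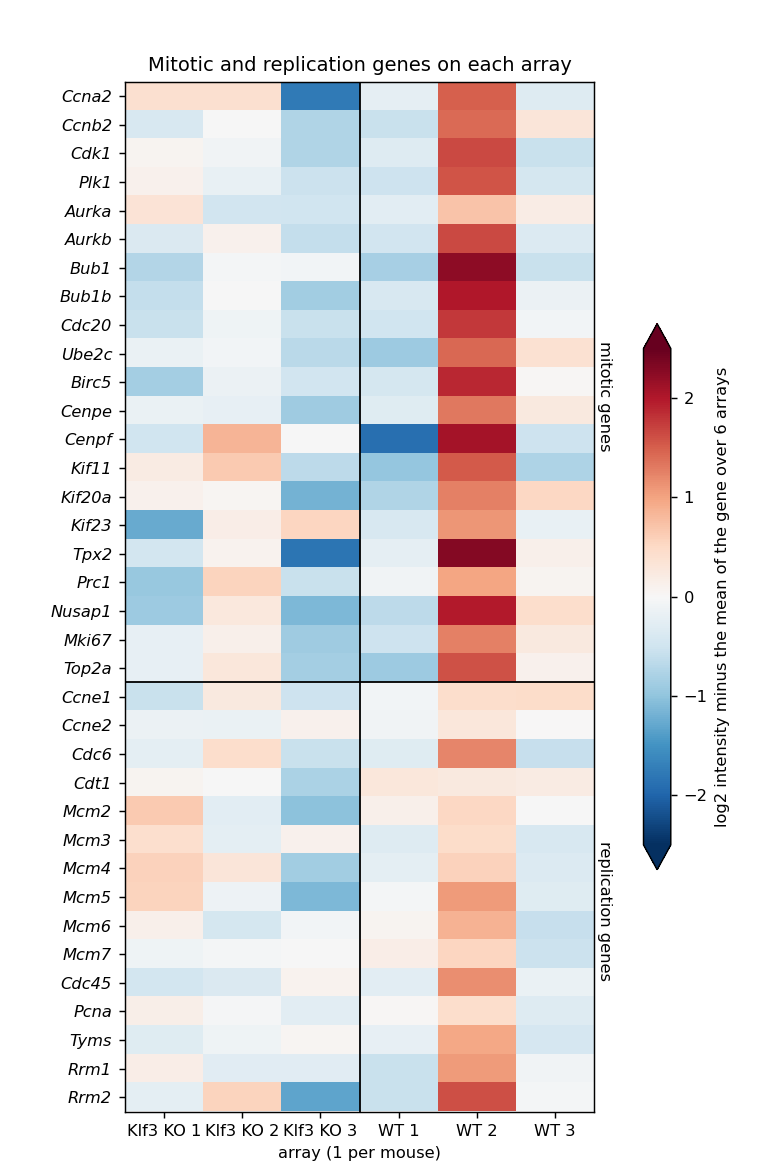
Heat map of 21 mitotic genes (top) and 15 replication genes (bottom) on 6 arrays, with Klf3 KO mice 1 to 3 left and WT mice 1 to 3 right. Colour is the log2 intensity minus the mean of the gene over the 6 arrays. The column of WT mouse 2 is above 0 in every gene, by the most in Tpx2 and Bub1.

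The 2 brightest mitotic probe sets were those of Top2a and Mki67. Top2a, whose product untangles sister chromatids, had deposited intensities of 435, 882 and 190 in Klf3 KO mice 1 to 3 and 210, 2168 and 302 in WT mice 1 to 3. After normalisation these were 8.65, 9.13 and 8.0 in Klf3 KO and 7.94, 10.44 and 8.96 in WT. The groups overlapped, and WT mouse 1 was the lowest array as WT mouse 2 was the highest. The log2 fold change of Top2a was -0.52 ± 0.62 (SE; limma adjusted p = 0.960). Mki67, which encodes the proliferation antigen Ki-67 of mitotic chromosomes, was 8.62, 8.95 and 7.92 in Klf3 KO mice and 8.30, 10.07 and 9.05 in WT mice. Its mean was 8.49 ± 0.52 in Klf3 KO and 9.14 ± 0.89 in WT (SD, n = 3 mice each), a log2 fold change of -0.65 ± 0.47 (SE; limma adjusted p = 0.943).

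Among replication genes the 2 brightest probe sets were those of Pcna, the clamp that holds DNA polymerase on its template, and Mcm5, a helicase subunit. Pcna varied little, with 10.33, 10.17 and 9.93 in Klf3 KO mice and 10.21, 10.63 and 9.88 in WT mice. Its log2 fold change was -0.10 ± 0.24 (SE; limma adjusted p = 0.980). Mcm5 spread more widely, at 9.46, 8.78 and 7.78 in Klf3 KO and 8.86, 9.97 and 8.60 in WT, with a log2 fold change of -0.47 ± 0.51 (SE; limma adjusted p = 0.957). Both genotypes held high and low arrays for each of these genes. Cdt1, the loading factor of the MCM helicase, was the 1 member whose groups did not overlap, at 8.34, 8.25 and 7.47 in Klf3 KO mice and 8.56, 8.50 and 8.47 in WT mice. All Klf3 KO arrays lay below all WT arrays in 6.55% of all genes. They lay above all WT arrays in 0 members and in 4.84% of all genes. The log2 fold change of Cdt1 was -0.49 ± 0.26 (SE; limma unadjusted p = 0.104, adjusted p = 0.910), and -0.22 without Klf3 KO mouse 3. As deposited, Cdt1 overlapped, with 354, 474 and 133 in Klf3 KO and 323, 563 and 215 in WT.

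**Figure D3:**
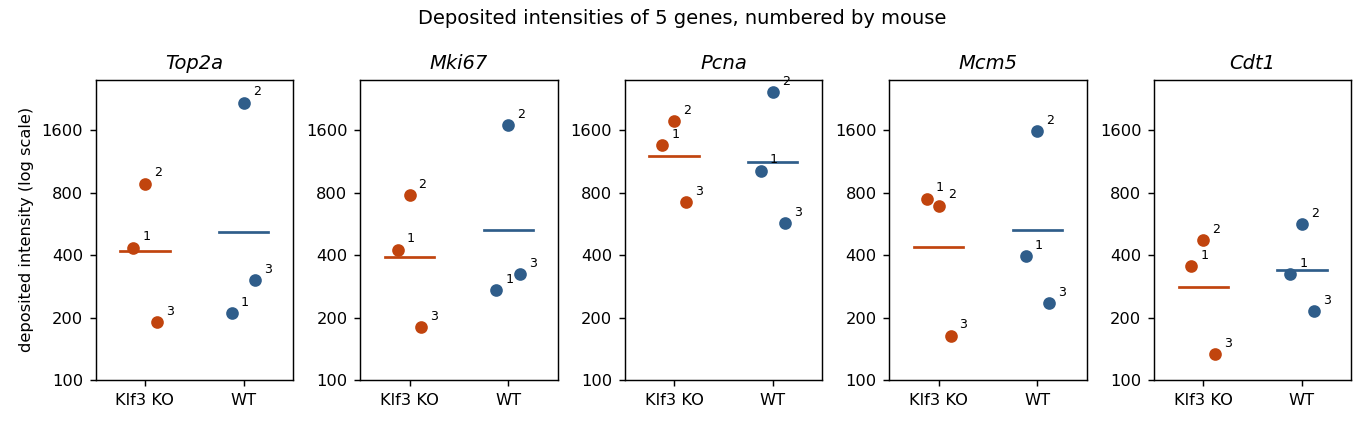
Deposited intensities (log scale, not normalised between arrays) of Top2a, Mki67, Pcna, Mcm5 and Cdt1 in Klf3 KO and WT mice. Points are single mice, numbered, and horizontal lines are geometric means. WT mouse 2 is the highest point in each panel, and levels are not comparable between genes.

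The cyclins and mitotic kinases were all highest in WT mouse 2, and the order of the other mice varied. Cdk1, the kinase that drives entry into mitosis, was 7.86, 7.72 and 7.04 in Klf3 KO and 7.47, 9.44 and 7.24 in WT. Its partner Ccna2 (cyclin A2) was 8.70, 8.70 and 6.54 in Klf3 KO and 8.07, 9.80 and 7.98 in WT, and Ccnb2 (cyclin B2) was 6.60, 7.0 and 6.25 in Klf3 KO and 6.44, 8.41 and 7.31 in WT. In all of these a single WT mouse stood above the rest, and Klf3 KO mouse 3 was the lowest. Plk1, a kinase of centrosome maturation, reached 8.28 in WT mouse 2 with the other arrays between 6.15 and 6.81, and Aurkb, the kinase of the chromosomal passenger complex, reached 8.17 there with the others between 5.93 and 6.63. Aurka, the spindle pole kinase, had the smallest lead, 7.54 in WT mouse 2 against 7.17 in Klf3 KO mouse 1. The 6 genes had log2 fold changes between -0.77 and -0.42 over all arrays, and between -0.26 and 0.27 without WT mouse 2.

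The genes of the spindle checkpoint and the anaphase-promoting complex shared the top array but not the lowest one. Bub1b (BUBR1) was 6.01, 6.58 and 5.72 in Klf3 KO and 6.20, 8.60 and 6.45 in WT, and Cdc20, the activator of the anaphase-promoting complex, was 6.32, 6.77 and 6.33 in Klf3 KO and 6.39, 8.65 and 6.82 in WT. The checkpoint kinase gene Bub1 averaged below background and crossed it only in WT mouse 2, at 7.25 there against 4.19 to 4.96 elsewhere. Ube2c, the ubiquitin-conjugating enzyme of the complex, was 7.65, 7.76 and 7.15 in Klf3 KO and 6.92, 9.25 and 8.20 in WT. In this group the lead of WT mouse 2 over the other 5 arrays had a median of 2.27 log2 units.

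Kinetochore and passenger genes were more varied among the low arrays. Birc5 (survivin), a passenger subunit, was 5.91, 6.63 and 6.30 in Klf3 KO and 6.34, 8.65 and 6.79 in WT. Cenpe, a kinetochore motor, was 6.17, 6.13 and 5.45 in Klf3 KO and 6.04, 7.67 and 6.59 in WT, and had the smallest unadjusted p of the mitotic genes (0.088; limma adjusted p = 0.910). Cenpf, a kinetochore protein, was 5.32, 6.66 and 5.80 in Klf3 KO and 3.93, 7.90 and 5.30 in WT. WT mice thus held both its highest and its lowest value, the latter below background. Further Cenpf probe sets, below background on average, gave log2 fold changes of -0.31 and -0.66. On its brightest probe set, Cenpf was 1 of the 2 mitotic genes with a positive fold change.

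Kif11, the motor that separates the spindle poles, was the other, at 7.03, 7.49 and 6.18 in Klf3 KO and 5.85, 8.36 and 6.06 in WT. Its log2 fold change was 0.14 ± 0.68 (SE, limma adjusted p = 0.991). A further Kif11 probe set, above background on average, went the other way at -0.79. Tpx2, a spindle assembly factor, had the widest range, at 6.16, 6.71 and 4.78 in Klf3 KO and 6.39, 8.92 and 6.74 in WT. Nusap1, which bundles spindle microtubules, was 6.38, 7.57 and 6.17 in Klf3 KO and 6.65, 9.27 and 7.73 in WT. For both genes WT mouse 2 was the top and Klf3 KO mouse 3 the bottom of the 6 arrays. Of the midzone genes, Prc1, a microtubule crosslinker, ran from 6.15 to 7.65 in Klf3 KO and from 7.0 to 8.07 in WT, Kif20a ran from 5.56 to 6.87 in Klf3 KO and from 5.99 to 8.01 in WT, and Kif23 ran from 6.66 to 8.46 in Klf3 KO and from 7.52 to 9.03 in WT. Kif20a and Kif23 encode motors needed for cytokinesis.

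The replication genes followed WT mouse 2 less closely. Of the origin licensing genes, Mcm2 was 8.77, 7.84 and 7.08 in Klf3 KO and 8.23, 8.64 and 8.11 in WT, with a Klf3 KO mouse at each end. Mcm3 and Mcm4 reached 8.51 and 8.56 in Klf3 KO mouse 1, close to the 8.55 and 8.57 of WT mouse 2, and Mcm4 averaged 7.99 in both genotypes. Mcm6 was 7.59, 7.02 and 7.40 in Klf3 KO and 7.52, 8.33 and 6.88 in WT. Mcm7 ran from 8.03 to 8.13 in Klf3 KO and from 7.61 to 8.69 in WT, and its second probe set gave 6.80, 6.44 and 6.69 in Klf3 KO against 7.08, 7.86 and 7.10 in WT, without overlap (log2 fold change -0.70, limma unadjusted p = 0.031, adjusted p = 0.868), so the 2 probe sets disagree in size. Cdc6 averaged below background and lay above it in Klf3 KO mouse 2 (5.38) and WT mouse 2 (6.16). Cdc45, a part of the active helicase, was 5.63, 5.72 and 6.18 in Klf3 KO and 5.83, 7.26 and 5.91 in WT.

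The nucleotide supply genes had the widest lead in WT mouse 2 of the replication groups, with a median of 1.27 log2 units over the other 5 arrays. Rrm2, the ribonucleotide reductase subunit whose level follows S phase, was 7.68, 8.48 and 6.62 in Klf3 KO and 7.37, 9.54 and 7.88 in WT. Rrm1, its partner subunit, was 8.09, 7.64 and 7.65 in Klf3 KO and 7.37, 8.99 and 7.85 in WT, and Tyms (thymidylate synthase) was 7.08, 7.26 and 7.43 in Klf3 KO and 7.18, 8.35 and 6.97 in WT. In each the other 2 WT mice lay within or just below the Klf3 KO range. The cyclin E genes differed from these. Ccne1 was 5.78, 6.59 and 5.83 in Klf3 KO and 6.27, 6.77 and 6.80 in WT, with the smallest unadjusted p of the replication genes (0.093; limma adjusted p = 0.910), and Ccne2 spanned 0.45 log2 units over all 6 arrays.

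The spread within a genotype was wider in WT, the group that holds WT mouse 2, for most of these genes. The SD over mice was larger in WT than in Klf3 KO for 18 of 21 mitotic genes, with a median of 0.49 in Klf3 KO and 1.20 in WT, and for 10 of 15 replication genes, with 0.33 in Klf3 KO and 0.55 in WT. Without WT mouse 2 the median log2 fold change was -0.13 for mitotic genes, with 8 above and 13 below 0, and 0.10 for replication genes, with 8 above and 7 below 0. As WT mouse 2 was the highest array for all 21 mitotic genes, leaving it out had to raise their fold changes. In that fit 1 member, Cenpf, was higher in Klf3 KO at an unadjusted p under 0.05, against 3.25% of all genes. At that level 0 members were lower. The log2 fold change of Cenpf was 1.31 (limma unadjusted p = 0.048, adjusted p = 0.860). Cenpf read 3.93, below background, in WT mouse 1, and its further probe sets gave -0.31 and -0.66 over all arrays. Without WT mouse 1, by contrast, 8 mitotic genes were lower at that level (Ccnb2, Ube2c, Birc5, Cenpe, Kif20a, Tpx2, Nusap1 and Mki67), against 2.0% of all genes, and none of them passed after adjustment (limma adjusted p = 0.999). At the same level 1 member was lower without Klf3 KO mouse 1 (Mcm2, 2.77% of all genes) and 2 without Klf3 KO mouse 2 (Prc1 and Ccne1, 1.84%). With probe sets whose names end in x_at or s_at set aside, 1 was lower (Mcm7, 2.5%).

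**Figure D4:**
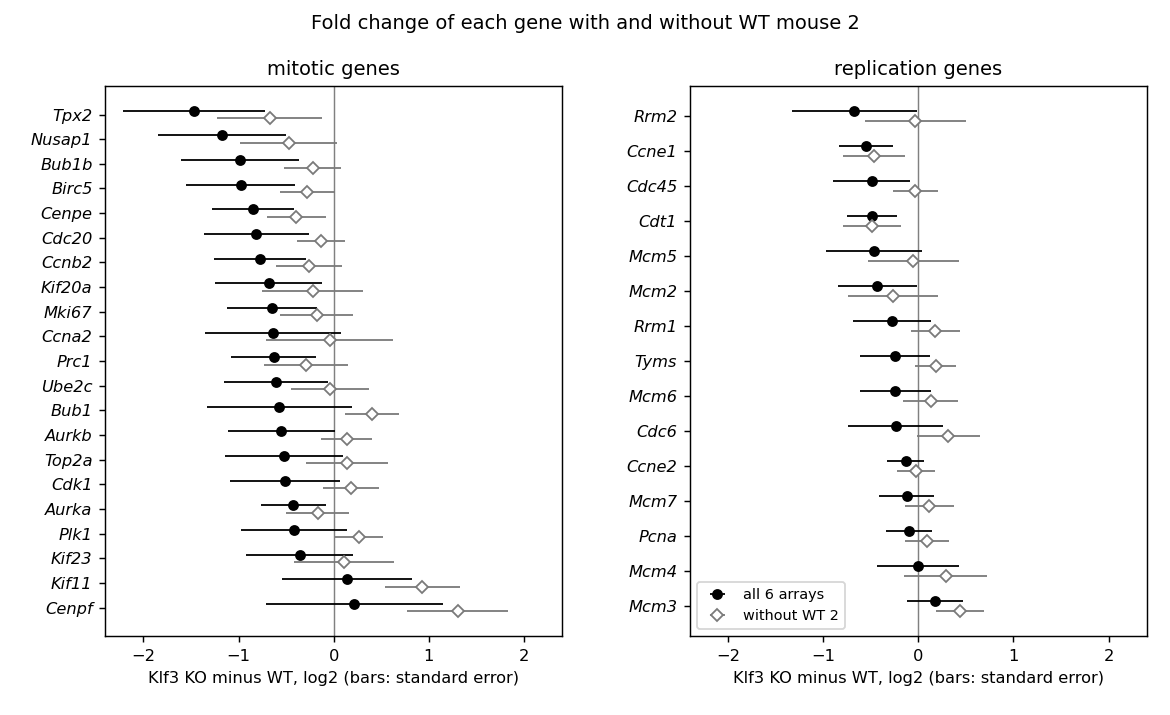
Log2 fold change of each mitotic gene (left) and replication gene (right), Klf3 KO minus WT, with standard errors, over all 6 arrays (filled circles) and without WT mouse 2 (open diamonds). Mitotic medians are -0.63 over all arrays and -0.13 without WT mouse 2, and 19 and 13 of 21 genes lie below 0.

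Pairs of mice with the same replicate number were also set side by side. In pair 2 the Klf3 KO mouse lay below the WT mouse for 21 of 21 mitotic and 15 of 15 replication genes, with median differences of -1.49 and -0.78. That pair holds WT mouse 2, the highest array for most of these genes, so the count largely repeats that finding. In pair 3 it lay below for 17 mitotic genes (median -0.69) and 7 replication genes (median 0.005), and in pair 1 for 7 mitotic genes (median 0.16) and 6 replication genes (median 0.07). Of all 17097 genes, the Klf3 KO mouse lay below in 9204 in pair 1, 9451 in pair 2 and 9265 in pair 3. The direction in the members was thus not the same in every pair. With the replicate number as a block, 5 mitotic genes were lower in Klf3 KO at an unadjusted p under 0.05, namely Bub1b, Birc5, Tpx2, Prc1 and Nusap1. Their limma unadjusted p lay between 0.015 (Nusap1) and 0.047 (Bub1b) and their adjusted p between 0.661 and 0.697. At that level 3.5% of all genes were lower and 4.45% higher with the block, and 0 members were higher. With both mice of pair 1 left out 5 members were lower at that level, against 1.89% of all genes, and with pair 2 left out 2 were, against 1.84%.

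Further probe sets of the same genes gave a second reading. Of 15 further mitotic probe sets 7 lay above background, and WT mouse 2 was highest in 6 of them. Of 12 further replication probe sets 6 lay above background, and WT mouse 2 was highest in 5. The exceptions were a dim further probe set of Top2a, which spanned 5.0 to 5.62 in Klf3 KO and 5.27 to 5.60 in WT, and a further probe set of Cdt1, highest in Klf3 KO mouse 1 at 7.10.

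Other genes of the pathway, taken from textbook lists, were counted in the same way. Of 43 other mitotic genes measured 35 were highest in WT mouse 2, and of 34 other replication and repair synthesis genes 29 were. Their median log2 fold changes were -0.47 and -0.27. At an unadjusted p under 0.05, 0 other mitotic genes were higher and 2 lower, Kif15 (-0.64 ± 0.21) and Kif2c (-1.27 ± 0.51, SE; below background on average), both mitotic motors, and 1 other replication gene was higher and 4 lower. Hells, a chromatin remodeller, had the smallest p among these at 5.13 ± 0.11 in Klf3 KO and 6.08 ± 0.20 in WT (SD, n = 3 mice each; limma adjusted p = 0.663), and Orc1, a subunit of the origin recognition complex, averaged below background and went the other way at 5.55 ± 0.29 in Klf3 KO and 4.52 ± 0.63 in WT (SD, n = 3 mice each; limma adjusted p = 0.868). At the unadjusted level 3.61% of all genes were higher and 2.47% lower, and no gene of these lists passed the adjusted threshold.

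Regulators of the cycle were counted as well. Of 24 measured genes of G1 control and the E2F, Rb and DREAM families 7 were highest in WT mouse 2, with a median log2 fold change of -0.13 and 1 higher (Lin52, a DREAM subunit, 0.62) and 1 lower (Skp2, a ubiquitin ligase subunit that targets the inhibitor p27, -0.66) at an unadjusted p under 0.05 (limma adjusted p = 0.868 and 0.854). Of 13 CDK inhibitors and antiproliferative genes 7 were highest there, with a median of 0.01 and 0 at that level in either direction. Cdkn1c (p57) had the smallest p of these, with a log2 fold change of 0.59 ± 0.26 (SE, limma adjusted p = 0.910). Over all genes, the shares at an unadjusted p under 0.05 were 3.61% higher and 2.47% lower.

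**Figure D5:**
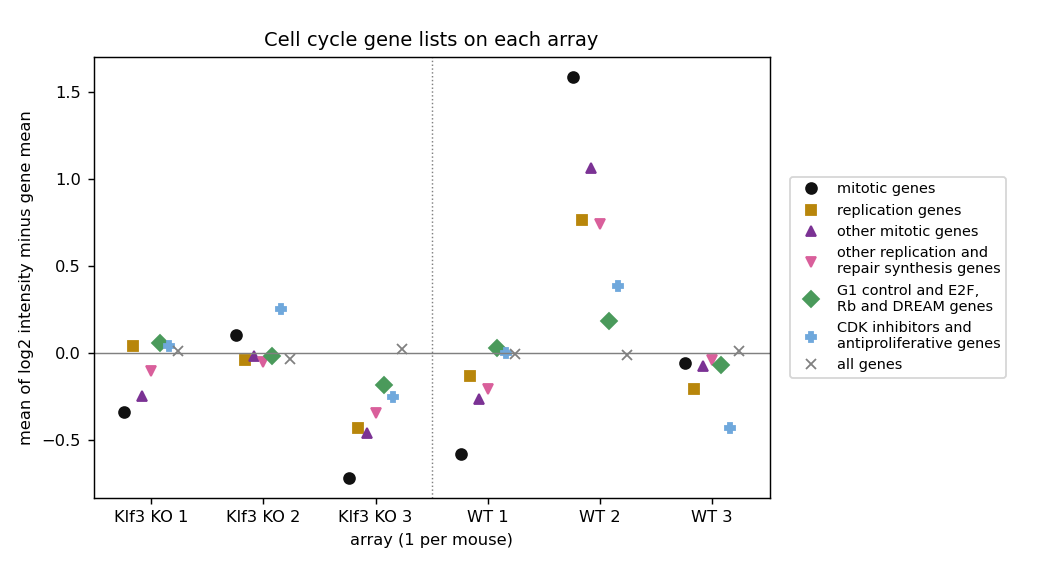
Mean over each list of the log2 intensity minus the mean of the gene, on the 6 arrays, with Klf3 KO mice left and WT mice right. In WT mouse 2 the mitotic genes average 1.58 and the replication genes 0.77 above their gene means, while all 17097 genes average -0.01.

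Markers of other cell types differed between the same arrays. Of 10 measured dendritic cell and MHC class II markers, all above background, 7 were highest in WT mouse 2, and their mean level was between 9.07 and 9.35 in Klf3 KO mice and between 9.50 and 10.28 in WT mice. The cytokine receptor gene Flt3 was 7.81, 8.0 and 7.37 in Klf3 KO and 7.52, 10.14 and 7.72 in WT, and the chemokine receptor gene Xcr1 was 6.54, 7.23 and 5.63 in Klf3 KO and 6.78, 9.02 and 6.65 in WT; both were singled out after their values were seen. Itgax, which encodes CD11c, had the smallest p of the list at 7.45 ± 0.26 in Klf3 KO and 9.13 ± 0.38 in WT (SD, n = 3 mice each; limma adjusted p = 0.600). The 15 macrophage markers ran the other way, lowest in WT mouse 2 for 8 and highest in Klf3 KO mouse 3 for 13, with mean levels of 9.32 to 10.59 in Klf3 KO and 8.93 to 9.70 in WT. At an unadjusted p under 0.05, 0 dendritic cell and MHC class II markers were higher in Klf3 KO and 2 lower, and 2 macrophage markers were higher and 0 lower. The shares over all genes were 3.61% higher and 2.47% lower.

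Of 8 measured neutrophil and myeloid precursor markers 4 were highest in WT mouse 2. They were Mpo, Elane (below background on average), Prtn3 and Camp, named after their values were seen. Mpo was 4.97, 6.85 and 4.93 in Klf3 KO and 4.82, 7.86 and 5.24 in WT. The other 4 did not peak there. Ltf, which encodes lactoferrin, was 8.89, 8.20 and 10.79 in Klf3 KO and 5.58, 5.62 and 7.37 in WT, without overlap (log2 fold change 3.11; limma unadjusted p = 0.0040, adjusted p = 0.736). S100a8 and S100a9 were highest in WT mouse 3, with log2 fold changes of 0.59 and 0.79, and Ngp in Klf3 KO mouse 1. The list averaged 6.13 to 6.58 in Klf3 KO and 5.08 to 6.76 in WT. Mast cell markers were high in both mice of pair 2, with a mean level of 9.40 in Klf3 KO mouse 2 and 8.35 in WT mouse 2 and 4.81 to 6.97 in the other 4 mice. The 12 stromal and preadipocyte markers were higher in Klf3 KO on average. All 12 had a positive log2 fold change, with a median of 0.96. At an unadjusted p under 0.05, 6 were higher, against 3.61% of all genes. In 5 all Klf3 KO arrays lay above all WT arrays, against 4.84% of all genes. Their mean level was 8.93 to 10.11 in Klf3 KO and 7.98 to 8.61 in WT. Igfbp6, a secreted binding protein of insulin-like growth factors, was 9.88 ± 0.11 in Klf3 KO and 7.99 ± 0.17 in WT (SD, n = 3 mice each; limma adjusted p = 0.200), and none of the list passed after adjustment. Of the 12, 11 were highest in Klf3 KO mouse 2 and 0 in WT mouse 2. T and innate lymphoid markers averaged 6.98 to 8.29 in Klf3 KO and 6.88 to 7.86 in WT, B cell markers 7.63 to 9.01 in Klf3 KO and 8.27 to 8.74 in WT, and endothelial markers 6.33 to 8.55 in Klf3 KO and 6.56 to 9.03 in WT, and WT mouse 2 was highest in 1, 0 and 0 of their genes. At an unadjusted p under 0.05, 1 T and innate lymphoid marker was higher (Gata3, log2 fold change 1.80) and 1 lower (Cd8a, -1.52). Cd8a was highest in WT mouse 2, at 10.03. The shares over all genes were 3.61% higher and 2.47% lower, and neither gene passed after adjustment (limma adjusted p = 0.865 and 0.874). No B cell, endothelial or mast cell marker reached the unadjusted level. The part of any of these cells in the mitotic and replication values was not tested.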

How the data were processed

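RNA of cells sorted as eosinophils from 3 Klf3 KO and 3 WT mice was hybridised to 6 arrays. The authors processed them in Partek Genomics Suite, a legend of the study names RMA, and no source used here gives its background and scaling steps. The deposited file held 1 linear intensity per mouse for 45037 probe sets. As array medians differed, the deposited intensities were taken to log2 and quantile-normalised between arrays. Quantile normalisation gives every array the same distribution, so a change shared by most genes would be lost. Genotype was fitted with limma 3.58.1 in R 4.3.3 (lmFit and eBayes), with Benjamini-Hochberg adjustment over all probe sets and a threshold of 0.05, and the code was tested on simulated data. Figures were drawn with matplotlib 3.10.9.

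The annotation gave 28898 probe sets 1 symbol, 551 several and 15588 none. No symbol was changed by a RefSeq gene table. The background, 5.10 log2 units or 34.2 on the linear scale, was the 95th percentile of 44 olfactory receptor probe sets, which 55.3% of probe sets exceeded. The number of arrays limits precision, and p-values set the genotype difference against the spread between mice of a genotype, moderated by limma over all probe sets. The main fit had no replicate block, so this spread includes differences between pairs.

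Members and lists were chosen with earlier results of these data known. Values per array were set by rule for members without overlap between genotypes or at an unadjusted p under 0.05 and for the 2 brightest genes of each program; the other members described by array were added after their values were seen. Of each other list, 2 to 4 genes with the smallest p and, for cell types, the first markers were to be named. That rule was not met for every list, and no gene of the B cell, endothelial and mast cell lists is named. Further genes were added after their values were seen.

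The numbers in the labels were taken to pair the mice, which are described as litter-matched. Arrays of 1 number deviated together from their genotype means, with r of 0.17, 0.23 and 0.21, and arrays of different numbers gave -0.18 to -0.01, in part a result of subtracting that mean. Alternatives were the deposited scale, median centring, the replicate block, each array or pair left out, trend and robust fitting, a one-way analysis of variance, a filter on dim probe sets, other probe sets of a gene and an offset of 16. The study's methods name an ANOVA with 2 factors, the second of which no source used here gives.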

Additional observations from a re-analysis of the deposited data

How the results depend on the processing

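No alternative called a member or any probe set after adjustment, and the lowest adjusted p of a member over all of them was 0.661. At an unadjusted p under 0.05 the number of members lower in Klf3 KO, 0 over all arrays, was 5 with the replicate block (3.5% of all genes). It was 1 (Mcm7, 2.5%) without probe sets whose names end in x_at or s_at. Leaving out single arrays gave 0 to 8, with 8 without WT mouse 1 (2.0% of all genes), 1 (Mcm2; 2.77%) without Klf3 KO mouse 1 and 2 (Prc1 and Ccne1; 1.84%) without Klf3 KO mouse 2. Leaving out pairs of the same number, an alternative chosen after seeing the data, gave 5 (Ccnb2, Aurka, Ube2c, Cenpe and Kif20a; 1.89%) without pair 1 and 2 (Prc1 and Ccne1; 1.84%) without pair 2. The number higher was 0 to 1, with 1 (3.25% of all genes) without WT mouse 2. The mitotic median ran from -0.65 to -0.41 over the settings that kept all arrays and from -1.14 to -0.13 when arrays or pairs were left out, and the replication median from -0.40 to -0.08 and from -0.51 to 0.10. Members above background numbered 34 of 36, or 36 at the 90th percentile of the olfactory receptor probe sets and 31 above the highest of them.

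Of 645 log2 fold changes of single genes under the alternatives 47 changed sign, in 19 genes, and 17 genes kept theirs. On the deposited scale these were Ccne2 (0.092), Mcm4 (0.21), Mcm7 (0.078) and Pcna (0.10). Mcm4 was 0.0056 after median centring and 0.005 with the offset, and the mean of all probe sets gave -0.25 for Cenpf, -0.32 for Kif11 and -0.085 for Mcm3. When arrays or pairs were left out, fold changes ranged from -0.93 to 0.14 for Aurkb, -1.14 to 0.40 for Bub1, -1.28 to 0.087 for Ccna2, -0.26 to 0.027 for Ccne2, -0.91 to 0.031 for Cdc45, -0.59 to 0.32 for Cdc6, -0.97 to 0.18 for Cdk1, -0.67 to 1.31 for Cenpf, -0.37 to 0.93 for Kif11, -0.92 to 0.18 for Kif23, -0.10 to 0.60 for Mcm3, -0.41 to 0.44 for Mcm4, -0.63 to 0.28 for Mcm6, -0.45 to 0.12 for Mcm7, -0.28 to 0.097 for Pcna, -0.94 to 0.27 for Plk1, -0.79 to 0.25 for Rrm1, -1.14 to 0.14 for Top2a and -0.61 to 0.18 for Tyms. The causes were not tested.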
